A study of Homo sapiens and Mus musculus with 13 samples.

Results

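The Noisy_BroadPeak class is one of 4 class names that the authors gave to the peaks of their mouse DRIP-seq lists, and it is called the broad class here. Its members were taken as every row with that class name, which gave 10393 of 53859 peaks in E14 and 3950 of 35894 peaks in 3T3, 14343 in all. The class name, and nothing measured here, chose the members. What the authors measured to give the names is not stated in the sources used here, so the words in them were not read as a description of the signal.

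The study recorded where RNA:DNA hybrids lie in several human and mouse cell lines, of which only the 3 mouse lists are used below. DRIP-seq gave 1 list from E14, embryonic stem cells of the mouse, and 1 from 3T3, mouse embryonic fibroblasts. DRIPc-seq of 3T3 gave 39905 peaks, of which 20233 are plus strand and 19672 minus strand. Genomic DNA was cut with XbaI, SspI, HindIII, BsrGI and EcoRI for all 3 libraries. No RNase is named for them in the labels. The name of the DRIPc-seq list mentions RNase A, so whether that library was treated is not known. Each list stands for 1 library, so no comparison has a replicate check, and a difference between E14 and 3T3 cannot be told apart from one between libraries. The lists hold positions without read counts, and the depth is unknown. Positions are on mm9, and neither genes nor sequences were read at them, since no annotation or genome of that build was used. For the same reason the labelled cell types were not checked against marker genes.

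An R-loop forms when RNA pairs with a DNA strand of its template and leaves the other DNA strand unpaired. R-loops arise mostly during transcription and are known from CpG-rich promoters and from the ends of genes. DRIP-seq recovers restriction fragments that hold a hybrid, using an antibody against RNA:DNA hybrids, so a peak has no strand and its edges depend on the enzymes' cut sites. DRIPc-seq sequences the RNA of the recovered hybrids and therefore gives a strand. Below, strand is as the DRIPc-seq list gives it, and downstream means to the right on the plus and to the left on the minus strand. Whether the listed strand is that of the RNA is not stated in the sources used here. If it is the opposite one, upstream and downstream swap below, and the divergent order reverses.

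Broad peaks were longer than most peaks, but the class overlapped the others in length. In E14 their lengths ran from 101 to 87843 bp and had a median of 2172 bp with quartiles of 1221 and 3774 bp. In 3T3 they ran from 101 to 45679 bp with a median of 3304 bp and quartiles of 1873 and 5768 bp. Over all peaks the E14 median was 1752 bp and the 3T3 median 2186 bp. Peaks named Noisy_MedPeak, the largest class and called the Med class here, had medians of 1682 bp and 2029 bp. Broad peaks under 500 bp numbered 673 in E14 (6.48%) and 130 in 3T3 (3.29%). Over all peaks, such short ones made up 10.4% in E14 and 8.48% in 3T3. The longest peak of the E14 list (299874 bp) belonged to the Med class. The broad class made up 19.3% of the peaks and 23.6% of their summed length in E14, against 11% and 14.5% in 3T3. Length alone therefore did not separate the broad class from the others, and shares are compared below at like length.

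**Figure D1:**
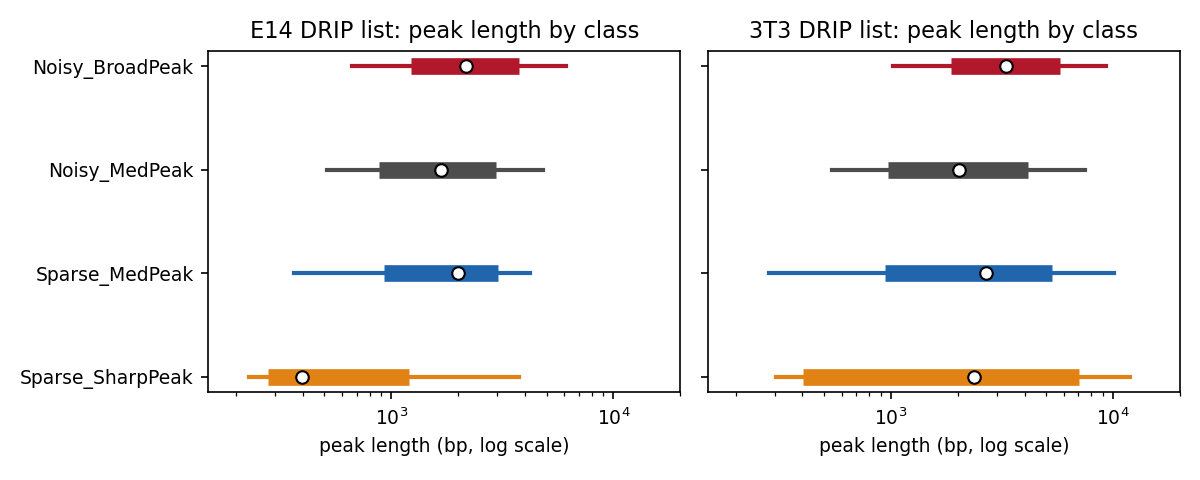
Peak length in bp on a log scale for the 4 classes of the E14 (left) and 3T3 (right) DRIP lists. Circles are medians, thick bars the middle 50% of peaks and thin lines the 10th to 90th percentiles; the broad class has its median at 2172 bp (E14) and 3304 bp (3T3), and its thick bar overlaps that of the Med class in both.

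A larger share of broad peaks than of other peaks stood next to another peak of their own list. With a gap of at most 1 bp, 2969 of 10393 broad peaks in E14 (28.6%, exact Clopper-Pearson 95% interval 27.7 to 29.4%) and 1996 of 3950 in 3T3 (50.5%, 48.96 to 52.1%) had such a neighbour. These intervals, here and below, cover counting error only, and peaks of 1 list are not independent replicates. Of all peaks, 12.4% in E14 and 13.7% in 3T3 had one. The share of the Med class was 8.32% (8.06 to 8.60%) in E14 and 8.26% (7.95 to 8.57%) in 3T3, so the lists were alike for this class and apart for the broad class. Nearly all contacts joined a broad and a Med peak, as given below, and each counts once in both classes. The numbers of abutting peaks were 2969 broad and 3320 Med in E14, and 1996 and 2495 in 3T3. Spread over 10393 and 39881 peaks in E14 and 3950 and 30212 in 3T3, they give the smaller class the higher share. The broad class was also a smaller part of the 3T3 list (11%) than of the E14 list (19.3%). Sparse_SharpPeak came next to the broad class in 3T3 with 33.0% (28.9 to 37.3%), and in E14 it had 11.2% (9.70 to 12.9%). In both lists the interval of the broad class lay above those of the other 3 classes.

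The neighbour was nearly always a Med peak. Of 3292 abutted sides of broad peaks in E14, 3216 (97.7%) met a Med peak, a class that made up 74.0% of the list. In 3T3 it was 2361 of 2435 sides (97.0%), against 84.2% of the list. Those shares of the list count broad peaks too, which seldom met each other. Of the other classes, Med had 39881 peaks in E14, beside 2045 of Sparse_MedPeak and 1540 of Sparse_SharpPeak. In 3T3 these numbers were 30212, 1229 and 503. By class size alone, a neighbour of another class would thus mostly be a Med peak. Another broad peak was met at 11 sides in E14 and 10 in 3T3, and Sparse_SharpPeak at 59 and 50. Contact includes overlap, and some broad rows overlapped each other, such as chr8:19856534-19882458 and chr8:19863024-19885399 in 3T3. Seen from the Med class, 1618 of 1794 Med peaks in E14 with a neighbour on the right (90.2%) had a broad one there, and 1197 of 1370 in 3T3 (87.4%). Broad peaks were also the largest class after Med, and no share by class size was computed for these. Where the next peak lay more than 1 bp away, a broad peak was followed by another broad one in 23.4% of 8745 cases in E14 and 14.6% of 2741 in 3T3. A Med peak was followed by a broad one at such gaps in 17.4% of 38075 cases in E14 and 7.81% of 28829 in 3T3. Within 1 bp, only 5 broad peaks in each list were followed by a broad one. At gaps of 2 bp to 1 kb the order was the same as in contact, though less marked. A broad peak came next after 29.0% of broad and 44.4% of Med peaks in E14, and after 21.0% and 30.04% in 3T3.

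The touching was exact. No neighbouring pair in either list had a gap of 0 bp, 3588 pairs in E14 and 2774 in 3T3 had a gap of exactly 1 bp, and only 111 and 60 had gaps of 2 to 10 bp. Another 54 and 22 pairs overlapped. Nearly all abutting peaks thus met at a shared boundary, with the next start numbered 1 above the previous end. If starts in these lists count from 1, each printed start is 1 bp too high.

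At like length the higher share of abutting broad peaks remained, though matching on length does not even out the unequal class sizes. In bins of 0.25 on the log2 scale of length, weighted by the number of broad peaks, 28.4% of E14 broad peaks abutted a neighbour against 9.50% of Med peaks, a difference of 18.9 percentage points (17.96 to 19.8). In 3T3 the values were 50.5% and 10.5%, a difference of 39.98 points (38.4 to 41.6). The broad share was higher in 25 of 26 length bins in E14 and 21 of 21 in 3T3, and on all 20 of the chromosomes 1 to 19 and X in each list. The matched difference ran from 15.7 to 23.2 points over chromosomes in E14 and from 26.9 to 47.5 in 3T3.

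**Figure D2:**
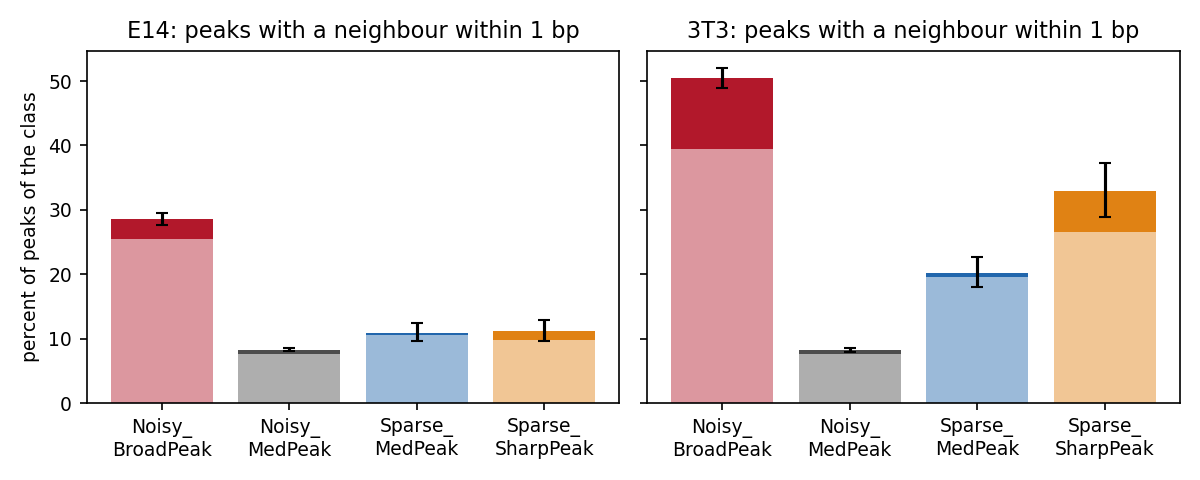
Percent of peaks of each class with another peak of the same list within 1 bp, in E14 (left) and 3T3 (right). Pale bars are peaks abutted on 1 side, dark bars on top those abutted on both sides, and black lines the 95% Clopper-Pearson interval of the sum; the broad class reaches 28.6% in E14 and 50.5% in 3T3.

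When peaks within 1 bp were joined, most regions built from several peaks held a broad peak. Of 3041 such regions in E14, 2776 (91.3%) held at least 1, and of 2107 in 3T3, 1841 (87.4%). The broad class was the largest after Med, and how far class size alone accounts for these shares was not tested. Among regions without a broad peak, 0.662% in E14 and 0.908% in 3T3 had more than 1 peak. Regions with a broad peak numbered 10200 in E14, with a median length of 2786 bp, and 3795 in 3T3, with a median of 5518 bp. Regions without one had medians of 1599 and 1953 bp. Because a broad peak is itself longer and is more often joined to others, these lengths describe the regions and do not separate the contributions.

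Within their regions, broad peaks lay alone, at an end or inside, and a few arrangements made up most of the regions. In E14, 7424 broad peaks (71.4%) were alone, 2646 (25.5%) were abutted on 1 side and 323 (3.11%, 2.78 to 3.46%) on both. In 3T3, 1954 (49.5%) were alone, 1557 (39.4%) were abutted on 1 side and 439 (11.1%, 10.2 to 12.1%) on both. Over all peaks, 1.12% in E14 and 1.92% in 3T3 were abutted on both sides. The commonest joined arrangement was a pair of 1 broad and 1 Med peak, with 2312 regions in E14 and 1327 in 3T3. A broad peak between Med peaks made up 228 regions in E14 and 315 in 3T3, and a Med peak between broad peaks 116 and 55. Longer chains mostly alternated in the same manner, such as Med-Broad-Med-Broad, with 24 regions in E14 and 30 in 3T3. Regions with 3 broad peaks numbered 3 in E14 and 10 in 3T3, and 1 region in E14 held 4, some of them overlapping.

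Broad peaks in contact with others were longer than those alone. In E14 the median was 2078 bp when alone, 2442 bp when abutted on 1 side and 2496 bp when abutted on both. In 3T3 the medians were 2971, 3657 and 3565 bp. An abutted broad peak filled a median of 46.5% of its region in E14 and 45.9% in 3T3 when it had 1 neighbour, and 25.5% and 24.7% when it had them on both sides.

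Left and right were used alike. Of the pairs of a broad and a Med peak, the Med peak lay on the right in 49.8% of regions in E14 (47.7 to 51.8%) and 49.1% in 3T3 (46.4 to 51.9%). Pairs touched by DRIPc-seq on 1 strand only, 902 in E14 and 509 in 3T3, showed no side either once the strand was taken into account. The Med peak lay downstream in 49.1% of them in E14 (45.8 to 52.4%) and 52.1% in 3T3 (47.6 to 56.5%). No preferred order of the classes along the strand was detectable at these numbers. For E14 the strand came from 3T3 cells, and whether it is the same in E14 was not tested.

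Inside the same region, other lists covered the broad peak more than its Med neighbour. Over the 1327 pairs in 3T3, E14 DRIP peaks covered a mean of 71.6% of the broad peak and 47.1% of the Med peak, a difference of 24.5 points (standard error over regions 0.975). The broad peak had the higher cover in 888 pairs and the Med peak in 244. DRIPc-seq covered a mean of 45.6% of the broad and 29.3% of the Med peak in these pairs, a difference of 16.3 points (standard error 1.01), with the broad peak higher in 780 and the Med peak in 350. The partners were alike in length, with medians of 3614 bp for the broad and 3956 bp for the Med peak. Over the 2312 pairs in E14, 3T3 DRIP peaks covered 67.7% of the broad and 53.6% of the Med peak, and 3T3 DRIPc-seq 29.3% and 22.2%. The differences of 14.2 and 7.16 points had standard errors of 0.658 and 0.657.

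The pattern turned around with the order of the classes. In the 315 regions of 3T3 with a broad peak between Med peaks, E14 peaks covered a mean of 72.2% of the centre (SD 37.6, n = 315 regions) and 49.6% of the flanks (SD 34.2). The centre was the more covered part in 236 of them and the flanks in 35. In the 55 regions with a Med peak between broad peaks, E14 peaks covered 52.2% of the centre (SD 39.0) and 67.6% of the flanks (SD 29.1), and the flanks were the more covered part in 31 and the centre in 19. In E14 the same arrangements gave 73.9% and 58.1% for centre and flanks with a broad centre, against 63.2% and 74.5% with a Med centre. On average the broad peak was the more covered part in either position. With a Med centre the counts in E14 were close, as the flanks were higher in 49 of 116 regions and the centre in 42, with medians of 94.6 and 93.2%. With DRIPc-seq, those 116 regions had 31.3% cover in the centre and 33.9% in the flanks, a difference of -2.62 points with a standard error of 2.62. In 3T3, a broad centre had 55.5% DRIPc-seq cover against 29.7% in its flanks, while a Med centre had 41.3% (SD 38.0) against 46.2% (SD 26.9), a difference of -4.94 points with a standard error of 4.74 over 55 regions.

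The boundary between a broad peak and its abutting neighbour seldom lay near such a boundary in the other list. Of 2420 such boundaries in 3T3 with a 1 bp gap, 61.8% lay inside an E14 peak, as did 76.3% of the midpoints of the same broad peaks. For E14 boundaries and midpoints inside a 3T3 peak the shares were 63.8 and 71.8%. Of the 3T3 boundaries, 130 (5.37%, 4.51 to 6.35%) lay within 500 bp of a boundary between an E14 broad peak and its abutting neighbour. Midpoints of the same 3T3 broad peaks lay that close to one in 2.76% of cases (2.08 to 3.57%). For E14 boundaries the share was 3.94% (3.30 to 4.67%), against 1.79% (1.34 to 2.33%) for midpoints. Boundaries thus lay inside a peak of the other list less often than midpoints, and near one of its boundaries more often, though both shares of the latter were small. Peak ends without an abutting neighbour did not count as boundaries, so whether boundaries fell at such ends was not tested.

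Broad peaks were shared between the mouse lines more often than Med peaks of the same length. Touching by at least 1 bp, 7363 of 10393 broad peaks in E14 (70.8%) met a 3T3 peak, against 47.8% of all E14 peaks, and 3352 of 3950 in 3T3 (84.9%) met an E14 peak, against 61.6% of all 3T3 peaks. In 3T3 the class Sparse_SharpPeak was shared about as often, at 82.1% (78.5 to 85.4%) beside 83.7 to 85.97% for the broad class, while in E14 it had 29.4%. A longer peak is touched more easily, and the share rose with length within the class. Among E14 broad peaks it went from 49.4% for lengths of 101 to 1221 bp to 88.5% from 3775 bp up. In 3T3 it went from 75.2% for 101 to 1873 bp to 92.0% from 5768 bp up. With lengths matched, 70.9% of E14 broad and 48.5% of Med peaks were shared, a difference of 22.4 percentage points (21.5 to 23.4). In 3T3 the matched shares were 85.5% and 66.7%, a difference of 18.8 points (17.5 to 20.03). The difference had the same sign on all 20 chromosomes in both lists, running from 12.9 to 31.5 points in E14 and from 9.09 to 27.8 in 3T3.

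In E14 only the shortest peaks departed from this. In the 3 bins between 181 and 304 bp, broad peaks were shared in 19.6, 7.69 and 17.9% of cases and Med peaks in 29.1, 24.7 and 20.8%, on 46, 91 and 106 broad peaks. In the other 23 bins in E14, and in all 21 bins in 3T3, the broad class was higher. The 3T3 bins began at 512 bp, so 3T3 peaks as short as those above were not compared. Among peaks with no abutting neighbour, the matched difference was 22.4 points in E14 and 19.7 in 3T3.

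**Figure D3:**
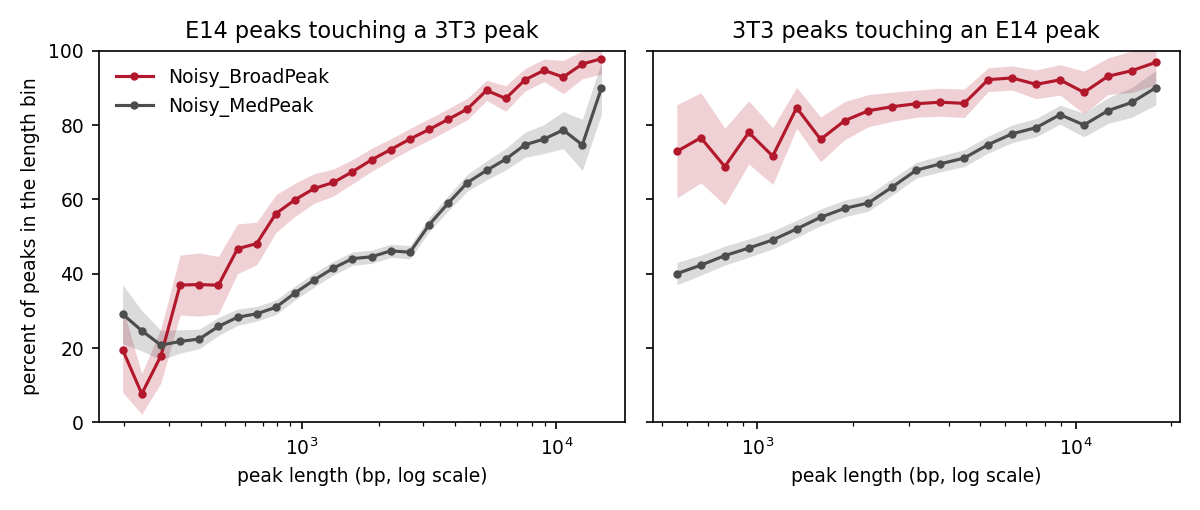
Percent of peaks touching a peak of the other mouse DRIP list by at least 1 bp, by peak length in bp on a log scale, for E14 (left) and 3T3 (right). Points are length bins with at least 30 peaks of both classes and bands 95% intervals from counting error by the normal approximation; the broad class (red) lies above the Med class (grey) in 23 of 26 bins in E14 and in all 21 in 3T3.

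The class itself was partly shared. Of all E14 broad peaks 2285 (22.0%) touched a 3T3 broad peak, against 8.58% of all E14 peaks, and of all 3T3 broad peaks 2168 (54.9%) touched an E14 broad peak, against 22.8% of all 3T3 peaks. Sparse_SharpPeak in 3T3 touched an E14 broad peak in 50.1% of cases (45.6 to 54.6%), an interval that overlaps that of the broad class (53.3 to 56.4%). Expressed among shared peaks, the partner with the longest overlap was broad for 26.9% of 7363 E14 broad peaks, although broad peaks made up 11% of the 3T3 list. It was broad for 58.8% of 3352 3T3 broad peaks, although broad peaks made up 19.3% of the E14 list. Most of the other partners were Med peaks, 67.4% for E14 and 36.1% for 3T3. At matched length, a broad peak touched a broad peak of the other list more often than a Med peak did, by 15.6 points (14.8 to 16.4) in E14 and 32.3 points (30.6 to 34.0) in 3T3. Where the partner was broad, its length was a median of 1.28 times that of the E14 peak and 0.984 times that of the 3T3 peak.

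Most 3T3 broad peaks also carried DRIPc-seq signal, and many carried it on both strands. Of the 3950, 2991 (75.7%, 74.4 to 77.1%) touched a DRIPc peak, against 45.6% of all 3T3 peaks. The plus strand alone was found at 787 (19.9%), the minus strand alone at 773 (19.6%), both strands at 1431 (36.2%, 34.7 to 37.7%) and neither at 959 (24.3%). Over all 3T3 peaks, 9.67% touched both strands, and over the Med class 6.09%. At matched length, touching any DRIPc peak differed by 25.98 points (24.6 to 27.4), with 76.7% of broad and 50.7% of Med peaks. Touching both strands differed by 27.8 points (26.3 to 29.2), with 36.4% and 8.59%. Plus and minus were found about equally often, and it was the share with both strands that set the broad class apart from the Med class.

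The share with both strands rose with length in both classes, and more in the broad class. From 512 to 609 bp it was 14.6% of 48 broad and 0.789% of 1014 Med peaks. From 4096 to 4871 bp it was 37.4% and 9.14%, and from 9742 to 11585 bp 71.6% and 25.8%. The broad class was higher in all 21 bins and on all 20 chromosomes, where the difference ran from 15.1 to 38.5 points. Sparse_SharpPeak in 3T3 had a share close to that of the broad class, 166 of 503 peaks (33.0%, 28.9 to 37.3%), so this feature was not limited to broad peaks. Sparse_MedPeak had 2.85% (1.99 to 3.94%).

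**Figure D4:**
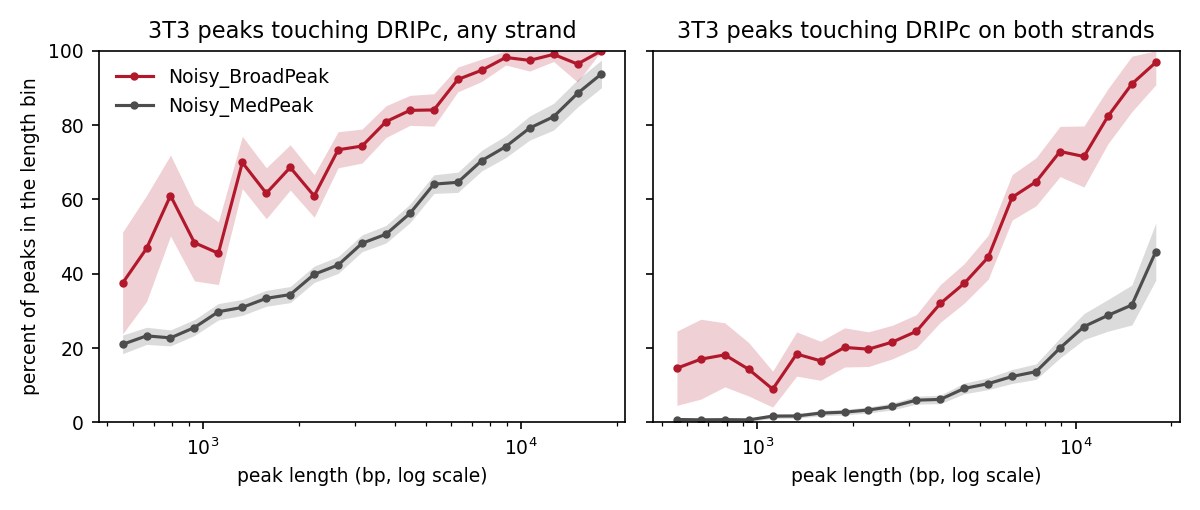
Percent of 3T3 DRIP peaks touching a 3T3 DRIPc peak on any strand (left) and on both strands (right), by peak length in bp on a log scale. Points are length bins with at least 30 peaks of both classes and bands 95% intervals from counting error by the normal approximation; on both strands the broad class (red) rises from 14.6% to 96.9% and the Med class (grey) from 0.789% to 46.0%.

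Where both strands were present, they mostly lay over each other. In 1322 of the 1431 such 3T3 broad peaks (92.4%, 90.9 to 93.7%) plus and minus DRIPc peaks overlapped inside the peak, against 84.2% of 1839 Med peaks (82.4 to 85.8%). Counted by bases, 30.03% of the 8.67 Mb of broad peaks covered by DRIPc-seq carried both strands, against 6.14% in Med peaks and 5.82% in the DRIPc-seq list as a whole. Outside all 3T3 DRIP peaks it was 0.821% of 50.6 Mb. Sparse_SharpPeak had 35.7%. Requiring at least 50% of the broad peak to be covered on each strand left 7.62%, so full cover by both strands was uncommon.

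The order of the strands along the peak was counted in the divergent direction only. The centre of the minus strand cover lay to the left of that of the plus strand, the divergent order, in 53.5% (50.8 to 56.1%) of 3T3 broad peaks with both strands. It did so in 50.5% of those with at least 25% of the peak covered on each strand, and in 51.4% (41.6 to 61.1%) of the 109 without overlap. Equal centres were not set apart from the opposite order, so the share of that order is not known. For broad peaks with 1 strand, only a cover centred downstream was counted, and peaks covered evenly were not set apart from those covered upstream. The centre of the covered bases lay in the downstream part in 680 of 1560 (43.6%, 41.1 to 46.1%), and in the Med class in 39.6% (38.6 to 40.5%).

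The same 3T3 DRIPc peaks were also found at E14 broad peaks, with smaller shares. Of the 10393, 4663 (44.9%, 43.9 to 45.8%) touched one, against 29.9% of all E14 peaks, and 1491 (14.3%, 13.7 to 15.0%) touched both strands, against 5.64%. The length-matched difference from the Med class was 14.1 points (13.1 to 15.1) for any strand and 9.72 points (9.04 to 10.4) for both. These shares set hybrids of one cell line beside those of another.

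Broad peaks that were broad in both lines had the most DRIPc-seq signal. Of the 2285 E14 broad peaks touching a 3T3 broad peak, 83.3% touched DRIPc-seq and 43.9% touched both strands. For the 5078 touching only other classes the shares were 47.2% and 9.10%, and for the 3030 touching no 3T3 peak 12.0% and 0.825%. Median lengths fell in the same order, 3477, 2288 and 1419 bp. At matched length the first group exceeded the second by 32.3 points (29.96 to 34.6) for both strands. The 3T3 broad class and 3T3 DRIPc-seq come from the same cell line, so this order is not independent of the values for 3T3 broad peaks above. Seen from 3T3, the matched difference between broad peaks with a broad E14 partner and those with another partner was 8.91 points (5.40 to 12.4), from 31.1% to 40.1%. Among the 598 3T3 broad peaks with no E14 peak, 64.0% still touched DRIPc-seq.

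Broad peaks were found on every chromosome from 1 to 19 and on X, in uneven shares. They were 12.6% of E14 peaks on chromosome X and 23.2% on chromosome 17, and 7.22% of 3T3 peaks on chromosome X and 13.3% on chromosome 7. Chromosome X was lowest in both lists. Chromosomes 7, 11 and 17 had intervals above the share of the whole list in both, with 21.7, 23.1 and 23.2% in E14 and 13.3, 13.1 and 12.9% in 3T3. Chromosomes 1, 12, 14 and X had intervals below it in both. Chromosome 11 alone held 864 E14 broad peaks (8.31% of the class, 6.93% of all peaks) and 371 in 3T3 (9.39% and 7.87%).

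The order of the chromosomes was alike in the lists and followed their density of peaks. Across these 20 chromosomes, Spearman's rho of the broad share between the lists was 0.738, and 0.695 without chromosome X. The broad share rose with the number of all peaks per Mb, with a rho of 0.898 in E14 and 0.808 in 3T3. That number includes the broad peaks, so the quantities are not independent, and the density of the other classes alone was not used. These are descriptions over 20 points that share 1 library each, with chromosomes taken to end at the last peak of any mouse list. Among E14 chromosomes with a high share, chromosome 4 had 22.0% (20.7 to 23.3%), and 20.2% (18.9 to 21.6%) without the stretch from 145 to 147 Mb, an interval that holds the share of the whole list.

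**Figure D5:**
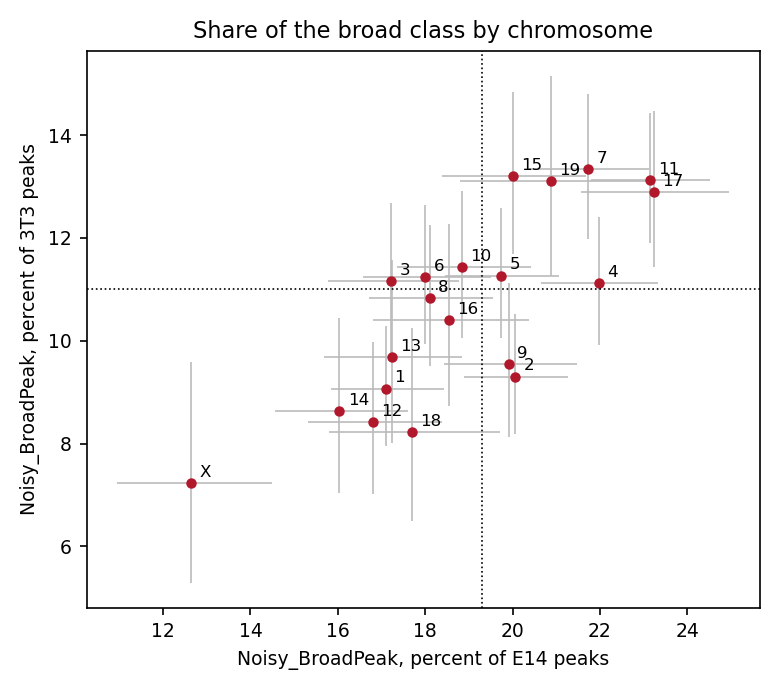
Percent of peaks that are broad in the E14 list (horizontal) and the 3T3 list (vertical) for chromosomes 1 to 19 and X, with 95% Clopper-Pearson intervals as grey lines. Dotted lines mark the whole lists, 19.3% and 11%; chromosome X is lowest in both, and 7, 11 and 17 are high in both.

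That stretch of chromosome 4 had the densest group of E14 broad peaks. In windows of 1 Mb, it held 69 broad peaks of 147 peaks between 146 and 147 Mb and 46 of 101 between 145 and 146 Mb. The median over E14 windows with a broad peak was 4. These windows were chosen after their counts were seen. The 3T3 list had no broad peak there and 1 and 2 peaks of any class. Of the 115 E14 broad peaks, 2 touched a 3T3 DRIP peak and 4 a DRIPc peak, and 17 carried a minus sign in the list. Chromosome 13 from 66 to 67 Mb was alike, with 33 broad peaks of 102 in E14 and no peak at all in 3T3. Other dense windows were dense in both lists, such as chromosome 7 from 52 to 53 Mb with 40 broad peaks in E14 and 20 in 3T3, and chromosome 10 from 79 to 80 Mb with 34 and 22. Dense broad peaks thus occurred both in shared windows and in windows of E14 alone.

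The longest broad peaks had both strands over most of their length in several cases. In E14 the longest lay at chr8:126060934-126148776 (87.8 kb), with 99.1% covered by 3T3 DRIP peaks and 79.8 and 99.8% by plus and minus DRIPc peaks. The next was chr9:3000001-3038429 (38.4 kb), with 99.7% of its length in 3T3 peaks, 99.7% in plus and 99.95% in minus strand DRIPc peaks. It had the longest overlap with a 3T3 broad peak, 29.4 kb. Those at chr8:19859511-19890059 (30.5 kb) and chr11:3049383-3074793 (25.4 kb) also had both strands, with 69.2 and 80.3% cover on the plus and 98.7 and 99.2% on the minus strand. Inside the former, another E14 broad row starts that carries a minus sign. How uniquely reads map at these places was not tested, since only listed positions were used. The fourth longest, chr18:60967844-60994022 (26.2 kb), differed, with 73.5% of its length in 3T3 peaks, no plus strand and 3.90% minus strand cover.

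In 3T3 the longest broad peak lay at chr1:95154192-95199870 (45.7 kb) between Med peaks, with 89.9% of its length in E14 peaks and 73.0% plus and 37.0% minus strand cover. It belonged to the region chr1:95124747-95201551 (76.8 kb), in which 3 broad and 4 Med peaks alternated. The others were chr6:47595776-47637038 (41.3 kb), with 99.8 and 98.2% cover by the strands, chr17:46787739-46823706 (36.0 kb), chr10:80565779-80597191 (31.4 kb) and chr2:84886676-84916764 (30.1 kb). All 5 touched both strands and E14 peaks, with E14 cover from 66.8 to 94.7%. The same alternating build of 3 broad and 4 Med peaks was found at chr11:20125491-20147780 in 3T3 and at chr1:93169204-93195910 in E14. The latter had 67.4% plus and no minus strand cover. The region with the most broad peaks of either list, 4 in E14 at chr8:19971210-20008606 (37.4 kb), had 74.3% plus and 98.9% minus strand cover. Sorted by start, it held 3 Med and then 4 broad rows, but these were not a chain of separate peaks. A broad row ran from 19986750 to 20008606, and another with a minus sign ended inside it at 19996852.

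Long broad peaks of 1 line only were present in both lists. In 3T3 the longest that touched no E14 peak was chr18:61802702-61827586 (24.9 kb), with 41.6% plus and 65.3% minus strand cover. It was followed by chr10:76165662-76190122 (24.5 kb), chr11:94796416-94817816 (21.4 kb), chr11:67488514-67509122 (20.6 kb) and chr10:76054088-76071379 (17.3 kb). DRIPc-seq of the same cells found both strands at all 5. In E14 the longest that touched no 3T3 peak were chr19:6313834-6328228 (14.4 kb), chr5:33822978-33836255 (13.3 kb), chr3:6297183-6309488 (12.3 kb), chr7:133427486-133439163 (11.7 kb) and chr11:97479102-97490549 (11.4 kb). None of these 5 touched a 3T3 DRIPc peak.

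Single-strand broad peaks were shorter. The longest with plus strand signal alone in 3T3 was chr10:127919407-127936650 (17.2 kb, 42.0% covered) and the longest with minus strand signal alone chr2:180411698-180426777 (15.1 kb, 32.6% covered). Among those with neither strand, the longest lay on the mitochondrial sequence, listed from 2 to 16281 as 1 broad peak in both DRIP lists. On the nuclear chromosomes it was chr11:120822135-120837055 (14.9 kb), of which 86.3% lay in E14 peaks.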

How the data were processed

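Members, lists and tests were chosen with earlier results of these data known. The authors' deposited DRIP-seq lists give start and end of each peak in bp, a class name, a score that is 0 in every row and a sign; the score was not used, and the sign only to leave out rows in an alternative. In the 3T3 DRIPc-seq list, plus and minus strand peaks have a track line each, per the file headers. Without giving roles, the submitters' processing notes list Bismark 0.7.7, BWA 0.6.1, TopHat2 2.0.5 and the builds mm9, hg19 and GRCh37. The sources used here do not state how peaks were called or against which control, and a region without a peak may still hold signal. Human lists were not used.

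Peaks of 1 list abutted when the gap was at most 1 bp, overlap included. Sharing needed 1 bp. Shares have exact Clopper-Pearson 95% intervals. Length-matched differences used log2 bins of 0.25 with at least 30 peaks of both classes, weighted by broad peaks, with intervals from binomial variances. By chromosome, bins of 1 with at least 5 peaks were used. No p-value was computed, as there is 1 list per group. Named regions were the 5 longest broad peaks of each list, the 5 longest without a peak of the other list, the longest overlap of broad peaks, regions with the most broad peaks, and the longest by strand pattern; part of these are printed. Functions were tested on simulated lists, and 3 counts matched bedtools 2.31.1. Scripts ran under Python 3.11.15 with scipy 1.17.1, numpy 2.4.6, matplotlib 3.10.9 and pandas 2.3.3.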

Additional observations from a re-analysis of the deposited data

Results flagged for a closer look

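The assay gives DRIP peaks no strand, yet 50 broad peaks of the E14 list and 8 of the 3T3 list carry a minus sign, while all others carry a plus sign. The sign entered no comparison of the report. Leaving those rows out, 28.5% of E14 and 50.4% of 3T3 broad peaks had an abutting peak. In E14, 17 of these broad peaks lay on chromosome 4 between 145550439 and 145769827 and 10 on chromosome 10 between 3195848 and 5994668. In E14 the sign was found in 0.481% of the broad class, 0.486% of the Med class and 3.25% of Sparse_SharpPeak (50 of 1540). The E14 broad peaks with the sign had a median length of 1257 bp, and 38.0% of them touched a 3T3 peak, beside 70.8% of the broad class and 47.8% of all E14 peaks.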

How the results depend on the processing

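Of 67 alternative values over 25 results, 29 stayed within the 95% interval of the reported value, 38 moved beyond it and no difference changed sign. No paired analysis was possible because each group compared is 1 list with no replicate. The gap that counts as contact mattered most. The share of broad peaks with an abutting peak was 0.183% in E14 and 0.253% in 3T3 at a gap of 0 bp, where overlaps alone count, 37.5 and 62.1% at 100 bp, and 70.2 and 84.4% at 1 kb. The share abutted on both sides was 0.0289 and 0.101%, 5.92 and 20.2%, and 24.2 and 43.7% at the same gaps. The matched difference in abutting was 37.97 points in E14 and 54.3 in 3T3 at 1 kb. With at least 50% of the peak covered, 64.1% of E14 and 73.8% of 3T3 broad peaks were shared, the matched differences in sharing were 26.3 and 26.2 points, 43.4% of 3T3 broad peaks were covered by DRIPc-seq and 7.62% by both strands, and the matched difference in DRIPc touch was 21.4 points. Among the longest 50% of broad peaks, 83.0% in E14 and 89.8% in 3T3 were shared, 89.1% in 3T3 touched DRIPc-seq and 54.1% both strands, and 9.98 and 10.5% lay on chromosome 11. Counted by base pairs, chromosome 11 held 9.71 and 10.4%. Sharing with the broad class of the other list alone was 22.0 and 54.9%. Merged regions with a broad peak were shared in 86.2% of cases in 3T3. Matched on the length of the merged region, sharing differed by 18.8 points in E14 and 14.4 in 3T3. With 25% of the peak covered on each strand, both strands differed by 6.26 points in E14 and 17.8 in 3T3, and the minus centre lay left of the plus centre in 49.7 and 50.5%. Depth is unknown, so a missing peak sets no upper limit. The alternatives chosen after seeing the data were those on the matched differences in abutting and in both strands, on 2-peak regions, on strand order within peaks, and on chromosomes 1 to 19 and X alone.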
